A study of Oryza sativa Indica Group and Oryza sativa Japonica Group with 20 samples.

Results

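Broad regions of H3K4me3 that carry no H3K27me3 were described in male meiocytes of rice. The members were chosen from the called peaks themselves. Within each cultivar the peaks of both H3K4me3 libraries were merged on chromosomes 1 to 12, and merged regions holding a peak of each library were kept. Members are those at least 2000 bp wide that overlap no peak of either H3K27me3 library of the cultivar. They numbered 2268 of 56765 H3K4me3 regions in all, with 1402 of 29541 in IR64 and 866 of 27224 in Azucena. They are called broad regions here, and regions under 2000 bp without H3K27me3 are called narrow regions.

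The meiocytes came from wild-type plants of IR64, labelled as an indica rice, and of Azucena, labelled as a japonica rice. They were at prophase I of meiosis and were drawn by glass capillary, as callose-bound clusters pressed out of opened anthers. Histone marks were profiled by CUT&Tag, in which an antibody brings a transposase to marked chromatin so that the DNA there is cut and tagged. Each cultivar had 2 libraries for H3K4me3 and 2 for H3K27me3, and the labels do not say which plants each replicate was taken from. P-values therefore measure how libraries vary, and that variation may be technical only. No genes are named in the peak lists, so meiocyte marker genes were not examined.

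H3K4me3 is placed on nucleosomes by Trithorax-group methyltransferases, mainly over the promoters and the first part of transcribed genes. H3K27me3 is placed by Polycomb repressive complex 2 and marks silent developmental genes. In mammals, unusually wide H3K4me3 domains are known at genes that define a cell's identity, and in plants meiotic crossovers are known to fall often near promoters that carry H3K4me3. The libraries pool many cells, so a region that is wide in every cell and one whose extent differs between cells cannot be told apart.

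Peaks on the 12 chromosomes numbered 30232 to 34583 per H3K4me3 library and 10134 to 17570 per H3K27me3 library. The authors' table lists 9.22 to 13.71 uniquely aligned reads per H3K4me3 library, in units of 1000000 (M). The H3K27me3 libraries held 47.91 and 9.0 M in IR64 and 10.11 and 10.28 M in Azucena, so replicate 1 of IR64 stands apart in aligned reads. The lowest local background recovered from the lists, in reads per position, was 7.71 and 7.01 in the IR64 H3K4me3 libraries and 6.28 and 6.58 in the Azucena ones. In the H3K27me3 libraries it was 2.40 and 1.85 reads in IR64 and 6.08 and 5.90 in Azucena. Median coverage at H3K27me3 summits was 24 and 23 reads in IR64 and 51 and 51 in Azucena. By these 2 measures replicate 1 of IR64 lay near replicate 2. All folds are the authors' values, given per peak at its summit over the local background, and they serve only to describe and rank peaks within a list.

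Broad regions without H3K27me3 made up 4.75% of the H3K4me3 regions of IR64 (95% Wilson interval 4.51 to 4.99) and 3.18% of those of Azucena (2.98 to 3.40). These intervals, like all below, cover counting error only. Because of their width they held a larger share of the marked sequence, 3.27 Mb or 9.91% of the covered length in IR64 and 2.01 Mb or 6.74% in Azucena. Most were only just broad. Their median width was 2250 bp in IR64, with quartiles of 2108 and 2470 bp, and 2229 bp in Azucena, with quartiles of 2105 and 2463 bp. In IR64 320 members reached 2500 bp and 56 reached 3000 bp, and in Azucena 191 and 22 did. The median narrow region measured 1014 bp (IR64) and 1006 bp (Azucena).

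The width limit falls in a continuous distribution. The members nearest above it in IR64 were 2000 bp wide, at chr3:27507096-27509095, chr5:21214533-21216532 and chr6:390949-392948. Their mean folds over both libraries were 4.51, 4.01 and 3.45. The regions nearest below it were 1999, 1998 and 1998 bp wide, at chr2:26916986-26918984, chr4:33933954-33935951 and chr5:1990424-1992421, with mean folds of 3.55, 3.05 and 3.18. In Azucena the 3 members nearest above were 2000, 2002 and 2004 bp wide, at chr1:31939550-31941549, chr11:1603988-1605989 and chr2:32480349-32482352, with mean folds of 3.99, 4.05 and 4.13. The 3 nearest below were 1999, 1999 and 1998 bp wide, at chr1:38993422-38995420, chr3:3242824-3244822 and chr1:24552264-24554261, with mean folds of 2.75, 3.71 and 3.03. Positions count from 1 and follow the peak lists of the cultivar, whose genome build is not given in the sources used here, so IR64 and Azucena positions cannot be set against each other.

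H3K27me3 removed a smaller share of the broad regions in IR64 than in Azucena. H3K27me3 overlapped 283 of 1685 broad H3K4me3 regions in IR64 (16.8%, 15.1 to 18.7) and 374 of 1240 in Azucena (30.2%, 27.7 to 32.8). Among H3K4me3 regions under 2000 bp the shares were 16.4% in IR64 (16.0 to 16.8) and 21.7% in Azucena (21.2 to 22.2). By width, the overlapped share in IR64 was 17.5% under 500 bp, 17.4% at 500 to 999 bp, 15.1% at 1000 to 1499 bp, 16.1% at 1500 to 1999 bp, 15.8% at 2000 to 2499 bp and 19.3% at 2500 to 2999 bp. In Azucena it was 26.4%, 22.2%, 19.8%, 22.7%, 29.5% and 29.9% over the same steps. The share was thus lowest at 1000 to 1499 bp in both cultivars, and higher in narrower as well as wider regions. At 3000 bp or more it was 23.3% of 73 regions in IR64 (15.1 to 34.2) and 46.3% of 41 in Azucena (32.1 to 61.3). Before this removal, broad regions of either kind made up 5.70% of IR64 regions (5.45 to 5.97) and 4.55% of Azucena regions (4.31 to 4.81). The IR64 share of members was thus 1.49 times that of Azucena. Both libraries enter every region, so a cultivar gives 1 value and the ratio was not tested. From H3K4me3 replicate 2 alone the ratio was 1.23, and from replicate 1 alone 1.68. The H3K4me3 background was higher and the H3K27me3 background lower in IR64 than in Azucena, and the part of depth in the ratio was not tested.

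Members depend on both libraries. With H3K4me3 peaks of replicate 2 alone, the share of members was 1.97% in IR64 and 1.60% in Azucena, and with those of replicate 1 alone 2.48% and 1.48%. In 365 IR64 members (26.0%, 23.8 to 28.4) and 250 Azucena members (28.9%, 25.9 to 32.0) both libraries held a single peak of at least 2000 bp. In 788 IR64 members (56.2%) and 442 Azucena members (51.0%) 1 library did. In the other 249 IR64 members (17.8%) and 174 Azucena members (20.1%) neither did, and the width came from peaks joined or offset between the libraries. Median widths of a member's widest peak were 2070 bp in replicate 1 and 1966 bp in replicate 2 of IR64, and 2008 and 2034 bp in those of Azucena.

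Each called peak carries 1 summit, so the number of summits in a region is the number of its peaks over both libraries. Members were 1 unbroken peak in both libraries, and so held 2 summits, in 866 of 1402 cases in IR64 (61.8%, 59.2 to 64.3) and in 581 of 866 in Azucena (67.1%, 63.9 to 70.1). Narrow regions did so in 96.0% and 97.5% of cases. Broad regions with H3K27me3 did so in 66.4% in IR64 and 72.7% in Azucena, so breaks were not particular to members. Members with 3 summits numbered 476 in IR64 (34.0%) and 256 in Azucena (29.6%). Those with 4 numbered 58 and 28, and those with 5, the most found, 2 and 1. No narrow region held 5. Wide merged regions have more room for breaks between peaks, so these numbers are in part set by the rule. The share of members in 1 unbroken peak per library also fell with width. At 2000 to 2499 bp 68.0% of IR64 members and 72.7% of Azucena members were unbroken in both libraries, at 2500 to 2999 bp 42.8% and 51.5%, and at 3000 bp or more 30.4% and 13.6%.

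The breaks were short. A break at the same place in both libraries would end the region, so every break inside a member is bridged by the other library by construction. Members split in both libraries were therefore split at different places. In IR64 165 members were split in replicate 1 only, 329 in replicate 2 only and 42 in both. In Azucena 152 were split in replicate 1 only, 111 in replicate 2 only and 22 in both. The gap between the peaks of a split member had a median of 397 and 399 bp in IR64 and of 401 and 383 bp in Azucena, and the longest gap was 1532 bp. Neighbouring summits in a split member lay a median of 1434 and 1333 bp apart in IR64 and 1400 and 1311 bp in Azucena. The lower of the leading 2 peaks reached a median of 0.766 and 0.803 of the fold of the higher one in IR64, and of 0.798 and 0.833 in Azucena. These ratios were not set against pairs of peaks from outside members, so no particular similarity in height is read from them.

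The widest members show these forms. In IR64 the widest was chr5:30334851-30338938, at 4088 bp, with 1 peak of 4067 bp in replicate 1 and 2 peaks in replicate 2. Its folds were 3.01 and 2.60. It was followed by chr2:768498-772301 (3804 bp, folds 3.36 and 3.34), chr7:3694489-3698197 (3709 bp, folds 3.69 and 3.75), chr7:4629600-4633162 (3563 bp, folds 3.78 and 3.45) and chr3:18097912-18101467 (3556 bp, folds 3.12 and 3.70). In chr7:4629600-4633162 the highest summits of the libraries stood at opposite ends, 3350 bp apart, and in chr5:30334851-30338938 they stood 32 bp apart. In Azucena the widest was chr5:30401068-30405009, at 3942 bp, split into 2 peaks in each library, with folds of 2.80 and 2.68. The next were chr5:26834715-26838623 (3909 bp, folds 3.39 and 3.06), chr1:3755449-3759242 (3794 bp, folds 3.46 and 2.67), chr11:3508920-3512517 (3598 bp, folds 2.93 and 2.55) and chr1:43469814-43473365 (3552 bp, folds 2.91 and 3.05). None of these 10 was unbroken in both libraries. The 3 widest H3K4me3 regions with H3K27me3 were 3405, 3355 and 3283 bp in IR64 and 3632, 3499 and 3471 bp in Azucena, so each cultivar's widest H3K4me3 region lay free of H3K27me3.

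**Figure D1:**
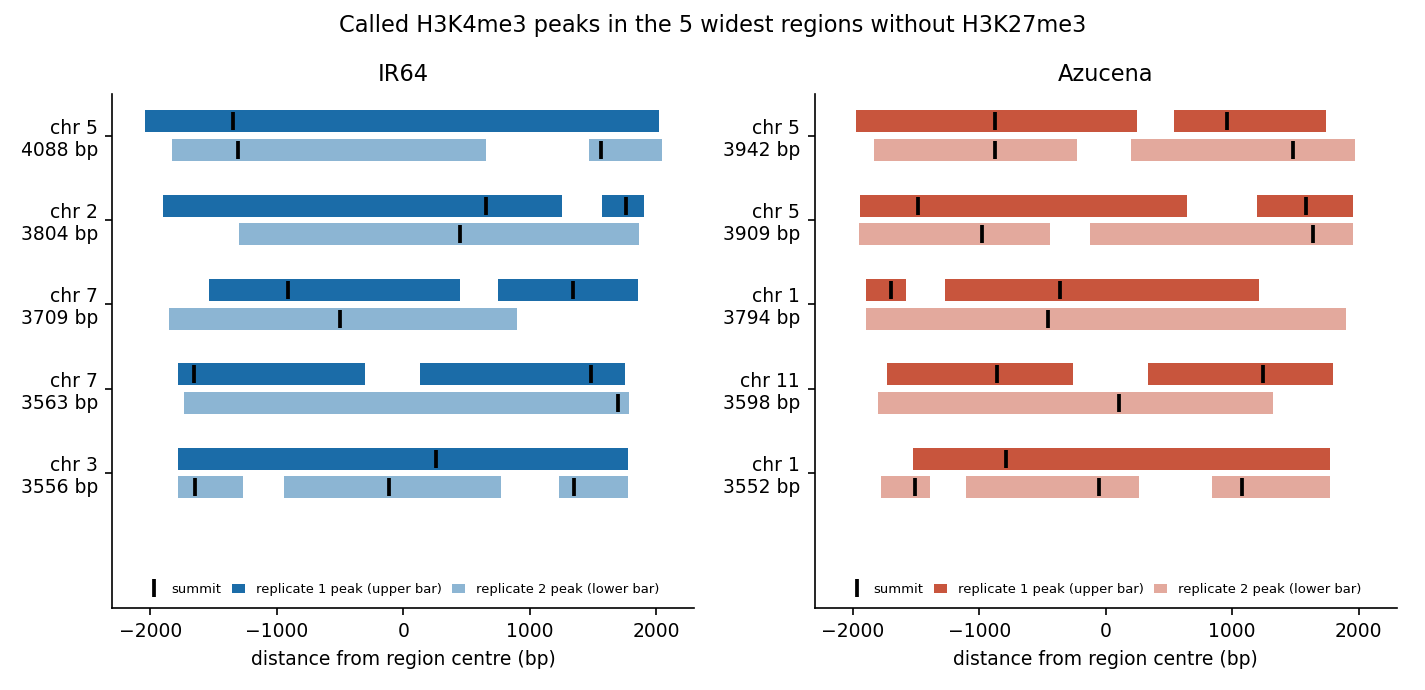
Called H3K4me3 peaks in the 5 widest members of each cultivar, as bars along the distance in bp from the centre of the region, with replicate 1 above replicate 2 and summits as black ticks. By the merging rule, each gap in one library is bridged by a peak of the other. The highest summits of the libraries stand from 32 to 3350 bp apart in the IR64 regions.

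By summits, the leading IR64 members were chr2:34887924-34891165 with 5 (3242 bp, folds 4.14 and 3.71) and chr3:24085314-24087925 with 5 (2612 bp, folds 3.02 and 2.78). Next came chr3:18097912-18101467, chr3:12382582-12385863 (3282 bp, folds 4.00 and 5.01) and chr12:18413045-18416304 (3260 bp, folds 3.09 and 2.91) with 4 each. In Azucena chr2:19554770-19557569 held 5 (2800 bp, folds 3.27 and 2.73). The 3 Azucena members chr5:30401068-30405009, chr5:26834715-26838623 and chr1:43469814-43473365, already named for their width, and chr6:16017002-16020279 (3278 bp, folds 3.44 and 4.19) held 4. Of the 58 IR64 and 28 Azucena members with 4 summits those named here are the widest.

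The width of members was then read in libraries that had not chosen them. Regions were chosen as broad and free of H3K27me3 from 1 H3K4me3 and 1 H3K27me3 library, and looked up in the other pair of the cultivar. Every region so chosen overlapped a peak of the other H3K4me3 library, 876 chosen in replicate 1 and 680 in replicate 2 of IR64, and 478 and 518 in Azucena. Regions narrow in the choosing library did so in 86.8% and 90.4% of cases in IR64 and in 92.2% and 89.7% in Azucena. The shares given below for narrow choices also count those without such a peak. In IR64, 42.6% of those chosen in replicate 1 had a peak of at least 2000 bp in replicate 2 (39.3 to 45.9), and 55.7% of those chosen in replicate 2 had one in replicate 1 (52.0 to 59.4). In Azucena the shares were 56.3% (51.8 to 60.7) and 50.4% (46.1 to 54.7). Regions narrow in the choosing library had such a peak in 1.52% and 2.90% of cases in IR64 and in 1.68% and 1.27% in Azucena. At a limit of 1500 bp in the other library, the shares of the broad ones were 68.5% and 84.1% in IR64 and 81.4% and 78.0% in Azucena.

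H3K27me3 was seldom called by the other library in these regions. Of the regions chosen in replicate 1 and in replicate 2, 2.17% (1.39 to 3.36) and 2.50% (1.57 to 3.97) overlapped a peak of the other H3K27me3 library in IR64. In Azucena 6.69% (4.78 to 9.30) and 4.05% (2.67 to 6.12) did. For regions narrow in the choosing library the shares were 1.88% and 2.78% in IR64 and 2.40% and 1.86% in Azucena. The intervals of broad and narrow choices overlapped in IR64 and not in Azucena. A wider region offers more sequence for an overlap.

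**Figure D2:**
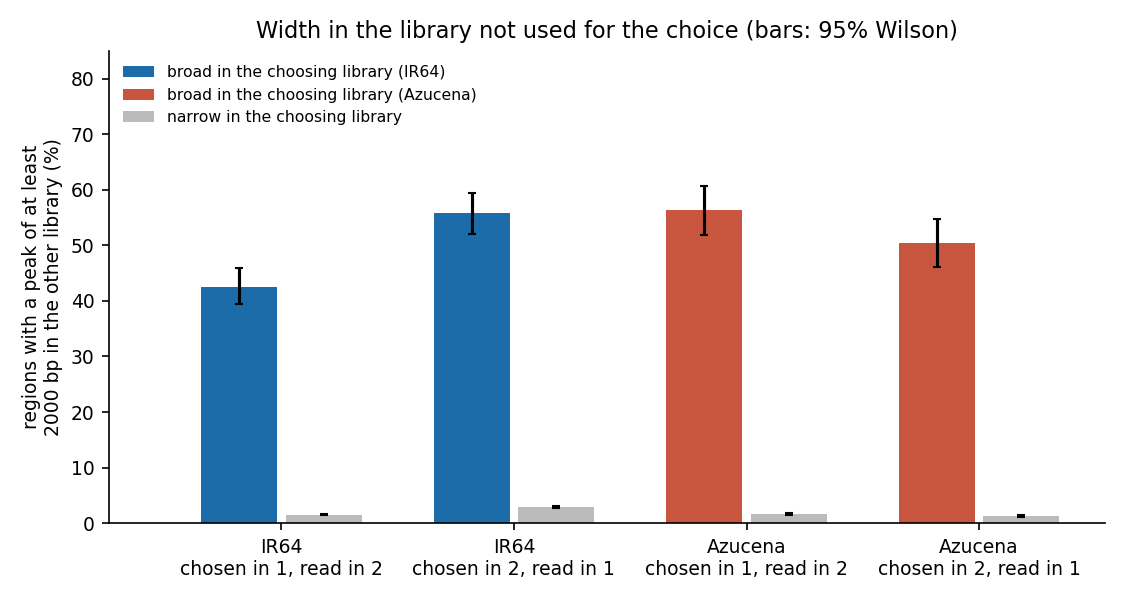
Percentage of regions with an H3K4me3 peak of at least 2000 bp in the library that was not used to choose them, for regions broad (coloured) and narrow (grey) in the choosing library, all free of H3K27me3 there. Error bars are 95% Wilson intervals. The broad choices reach 42.6% to 56.3% and the narrow ones 1.27% to 2.90%.

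Broad regions had middling summits. The highest peak of an IR64 member had a median fold of 3.78 in replicate 1 and 3.66 in replicate 2, against 3.68 and 3.50 in narrow regions. In Azucena the medians were 3.76 and 3.76 in members, against 3.85 and 3.83 in narrow regions. The spread of members was smaller at both ends. Their lowest 10% lay below 2.89 and 2.81 in IR64 and 2.94 and 2.90 in Azucena, against 2.56 and 2.50 and 2.70 and 2.67 in narrow regions. Their highest 10% lay above 4.95 and 4.75 in IR64 and 4.78 and 4.78 in Azucena, against 5.49 and 5.06 and 5.63 and 5.63 in narrow regions. Broad regions with H3K27me3 were also spread less than narrow regions. The same limits were 3.05 and 2.92 below and 5.37 and 4.90 above in IR64. In Azucena they were 3.03 and 2.99 below and 5.01 and 4.87 above. The medians of these regions were 4.02 and 3.80 in IR64 and 3.86 and 3.88 in Azucena, above those of members. The folds come from the peaks that chose the members, so members against narrow regions is a description without a test.

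Set into 5 equal groups of rising mean fold, all regions without H3K27me3 showed the same shape. From the lowest to the highest group, members made up 2.51%, 6.16%, 7.41%, 8.12% and 4.19% of the regions in IR64. In Azucena they made up 2.66%, 5.00%, 6.65%, 4.71% and 1.39%. Of the 100 regions of highest mean fold, 1 was a member in IR64 and 0 in Azucena, where a count of 0 among 100 allows a share of up to 3%. The regions ranked here were 1402 members and 23288 narrow regions in IR64, and 866 and 20346 in Azucena. Median fold was highest at 1000 to 1999 bp and lower in both narrower and wider regions. In IR64 replicate 1 the median fold was 2.98 under 500 bp, 3.41 at 500 to 999 bp, 3.98 at 1000 to 1499 bp, 4.08 at 1500 to 1999 bp, 3.83 at 2000 to 2499 bp, 3.71 at 2500 to 2999 bp and 3.29 at 3000 bp or more. In Azucena replicate 1 it was 3.06, 3.62, 4.20, 4.06, 3.82, 3.53 and 3.40 over the same steps. Replicate 2 gave the same order of steps in Azucena and, in IR64, a highest median of 3.87 at 1500 to 1999 bp. Among members, Spearman's rho between width and fold was -0.150 and -0.134 for IR64 (1402 regions) and -0.188 and -0.175 in Azucena (866 regions), and within narrow regions of 0.327 and 0.319 in IR64 and 0.286 and 0.279 in Azucena. In broad regions with H3K27me3 rho was negative too, at -0.250 and -0.243 in IR64 and -0.192 and -0.192 in Azucena. The points of each rho share a library and its depth.

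**Figure D3:**
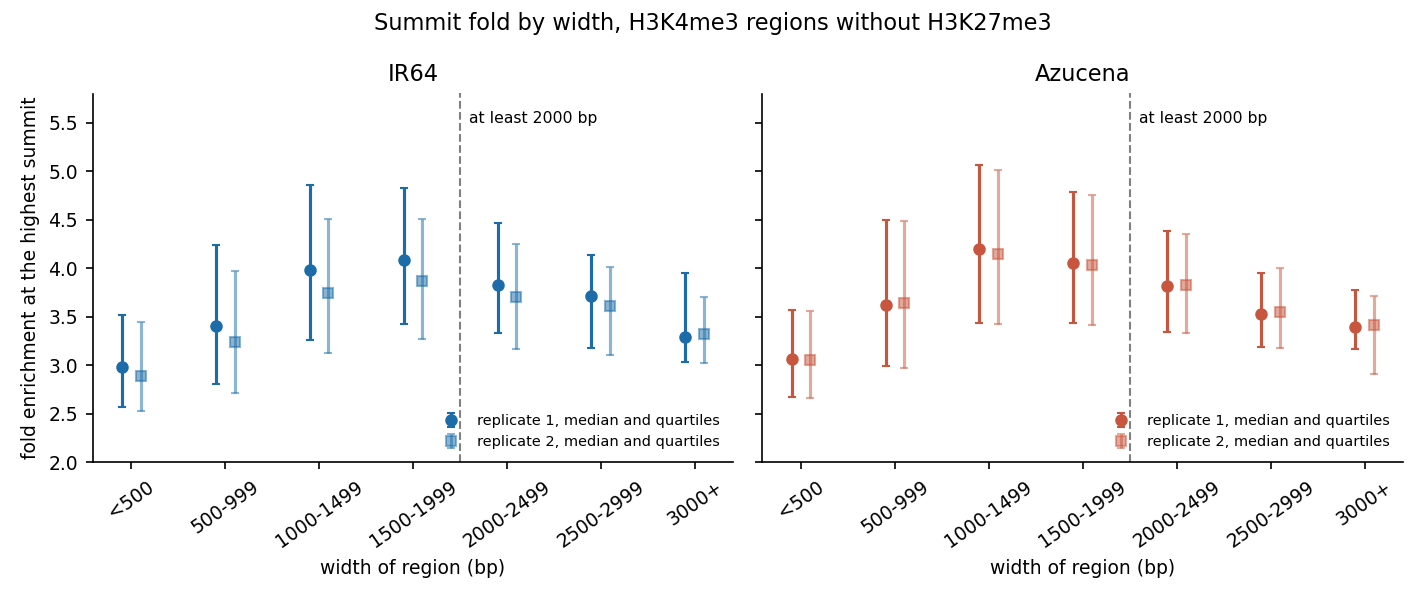
Fold enrichment at the highest summit (median and quartiles) by width of region, for H3K4me3 regions without H3K27me3 in each library of IR64 and Azucena. Members lie right of the dashed line. Medians are highest at 1000 to 1999 bp and lower in each wider step, at 3.29 and 3.32 in IR64 and 3.40 and 3.42 in Azucena for 3000 bp or more.

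The read coverage behind these folds was higher in members. The median coverage at the highest summit was 56 and 48 reads in the IR64 members, against 48 and 41 reads in narrow regions. In Azucena it was 48 and 49 reads in members, against 42 and 43 reads in narrow regions. Broad regions with H3K27me3 had 54 and 45 reads in IR64 and 47 and 48 in Azucena, also above narrow regions. The local background of members was higher too, with medians of 13.7 and 12.2 reads in IR64 members and 11.7 and 10.7 reads in narrow regions. In Azucena it was 11.9 and 12.4 reads in members and 9.64 and 10.1 reads in narrow regions. The background stood at the lowest level of its library in 2.21% and 1.93% of IR64 members and 0.808% and 0.693% of Azucena members, against 14.6% and 14.4% of IR64 and 14.4% and 14.2% of Azucena narrow regions. Fold is the ratio of the 2 quantities, so a member with more reads at its summit than a narrow region could have the same fold. Coverage and background move with width here, and their part in the fold differences was not tested.

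The members of highest mean fold were 2045 to 2792 bp wide. In IR64 they were chr3:14225303-14227419 (mean fold 7.88 ± 0.0623, SD, n = 2 libraries), chr5:4927271-4929348 (7.06 ± 0.214), chr7:5195761-5197995 (6.62 ± 1.02), chr12:18794923-18797714 (6.35 ± 0.141) and chr7:5172960-5175235 (6.24 ± 0.895). The pair on chromosome 7 lay 20525 bp apart and were each other's nearest member. In each of these 5 the highest summits of the libraries stood 1 to 44 bp apart. In Azucena the leading members were chr3:21671979-21674273 (7.16 ± 0.22), chr11:14489475-14491519 (6.31 ± 0.723), chr1:21256602-21258983 (6.10 ± 0.277), chr11:24713660-24715707 (6.06 ± 0.315) and chr10:8939613-8941746 (5.98 ± 0.0211). The distance between libraries was 8 to 302 bp. The leading Azucena region also lay far from other marks, 30627 bp from the next H3K4me3 region and 137620 bp from the nearest H3K27me3 peak.

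The highest summit lay less often in the centre of members than of narrow regions, and the libraries' highest summits stood farther apart in bp. Broad regions with H3K27me3 were like members in both. Wider regions leave more room for distances in bp, so these are in part set by the rule. Between libraries the median distance was 221 bp in IR64 members and 108 bp in narrow regions, beside median widths of 2250 and 1014 bp. In Azucena it was 201 and 103 bp, beside 2229 and 1006 bp. It lay a median of 632 and 634 bp from the nearer edge in IR64 members and 602 and 622 bp in Azucena members, against 287 and 277 bp and 296 and 295 bp in narrow regions. It fell in the central 33.3% of the width in 38.5% and 37.9% of IR64 members and 36.4% and 37.6% of Azucena members. Narrow regions had it there in 46.1% and 43.8% of cases in IR64 and 48.9% and 47.9% in Azucena. The highest summits of the libraries stood within 100 bp of each other in 33.1% of IR64 members and 34.1% of Azucena members, against 47.9% and 49.2% of narrow regions. They stood over 500 bp apart in 459 IR64 members (32.7%) and 263 Azucena members (30.4%), against 8.42% and 6.75% of narrow regions. Broad regions with H3K27me3 had summits that far apart in 33.2% of cases in IR64 and 29.4% in Azucena, and a central summit in 36.4% to 39.3% over the 4 libraries. In 238 and 134 members they stood over 1000 bp apart, a distance most narrow regions are too short to hold.

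Members stood farther from their neighbours than narrow regions did, and so did broad regions with H3K27me3. The nearest other H3K4me3 region lay a median of 5912 bp away in IR64 members, with quartiles of 4261 and 8893 bp, and 4117 bp away in IR64 narrow regions. In Azucena the medians were 6295 bp in members, with quartiles of 4576 and 9315 bp, and 4556 bp in narrow regions. For broad regions with H3K27me3 they were 6607 bp in IR64 and 7154 bp in Azucena, above those of members. Another H3K4me3 region within 2000 bp was found for 7.20% of IR64 members and 5.31% of Azucena members, against 24.2% and 18.7% of narrow regions. The median distance grew with width over all steps. In IR64 it was 2702 bp for regions under 500 bp and 6358 bp at 3000 bp or more, and in Azucena 3142 and 9743 bp. Merging joins close peaks into 1 region and so removes close neighbours of wide regions by construction.

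The nearest other member lay a median of 79014 bp from members and 83353 bp from narrow regions in IR64. In Azucena it lay 108126 bp from members and 133959 bp from narrow regions. Another member lay within 20 kb of 242 IR64 members (17.3%, 15.4 to 19.3) and of 99 Azucena members (11.4%, 9.48 to 13.7). A member lay within 20 kb of 15.5% of narrow regions in IR64 (15.0 to 15.9) and 9.97% in Azucena (9.56 to 10.4), so the intervals of members and narrow regions overlapped in both cultivars. With 1 H3K4me3 library left out there were fewer members, and 7.99% of IR64 and 7.24% of Azucena members (without replicate 1) or 8.98% and 8.52% (without replicate 2) lay that near to another. The H3K4me3 region following a member was itself a member in 88 of 1401 cases in IR64 (6.28%) and 38 of 866 in Azucena (4.39%). After other H3K4me3 regions the next was a member in 4.67% of cases in IR64 and 3.14% in Azucena. Such neighbouring members left a median gap of 9493 bp (IR64) and 9623 bp (Azucena).

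The fullest stretches of 100 kb held 5 members in IR64 and 4 in Azucena. In IR64 one lay at chr1:1764662-1864661, with 5 members among 15 H3K4me3 regions, and the other at chr2:26237839-26337838, with 5 members among 8. In the second, the 5 members were 2343 to 2686 bp wide, 4899 bp apart at the closest, with folds of 3.71 to 5.13 in replicate 1 and 3.39 to 5.02 in replicate 2. In Azucena both were on chromosome 2, at chr2:19635892-19735891 with 4 members among 9 regions and chr2:30821001-30921000 with 4 among 14. The 4 members of the first Azucena stretch were 2214 to 2531 bp wide.

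The distance to H3K27me3 was nearly the same for members and narrow regions. The nearest H3K27me3 peak lay a median of 14227 bp from IR64 members, with quartiles of 6305 and 29545 bp, and 14440 bp from narrow regions. In Azucena the medians were 10517 bp, with quartiles of 5017 and 20679 bp, and 10589 bp. Measured to each H3K27me3 library alone, the member medians were 15887 and 18537 bp in IR64 and 11502 and 11756 bp in Azucena; members and narrow regions thus differed by less than these libraries did. An H3K27me3 peak stood within 1000 bp of 29 IR64 members (2.07%, 1.44 to 2.95) and 21 Azucena members (2.42%, 1.59 to 3.68), against 2.68% (2.48 to 2.89) and 4.06% (3.80 to 4.34) of narrow regions. The interval of members lay below that of narrow regions in Azucena and overlapped it in IR64. Over 50000 bp from any H3K27me3 peak lay 138 IR64 members (9.84%) and 38 Azucena members (4.39%), against 9.41% and 5.64% of narrow regions.

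Members occurred on every chromosome. Chromosome 3 held the most, 212 in IR64 (5.85% of its H3K4me3 regions, 5.13 to 6.66) and 138 in Azucena (4.07%, 3.45 to 4.78), and chromosome 2 had the next highest share in both, at 5.49% and 3.57%. The lowest share was on chromosome 11 in IR64, at 2.84% (55 members, 2.19 to 3.67), and on chromosome 12 in Azucena, at 2.26% (36 members, 1.64 to 3.11). Chromosome 11 of Azucena stood at 2.63%. Per Mb, chromosome 3 held 5.42 members in IR64 and 3.59 in Azucena, and the sparsest chromosomes 1.73 (chromosome 11) and 1.31 (chromosome 12). On IR64 chromosome 11, H3K27me3 overlapped 33.7% of the 83 broad regions, against 12.3% to 20.8% on the other IR64 chromosomes. Broad regions of either kind were also fewest there, at 4.28% of H3K4me3 regions. Over the 12 chromosomes the shares of the cultivars had r = 0.623 and rho = 0.545, given as a description without a test. Median member width per chromosome stayed between 2195 and 2289 bp in IR64 and 2183 and 2289 bp in Azucena.

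**Figure D4:**
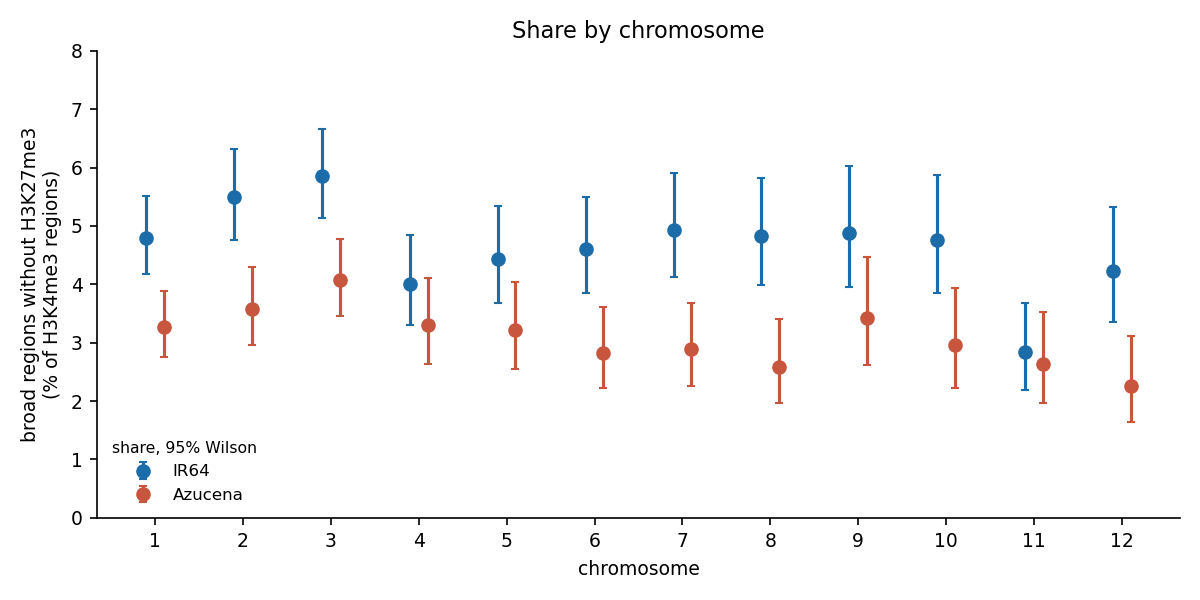
Broad H3K4me3 regions without H3K27me3 as a percentage of the H3K4me3 regions of each chromosome, in IR64 and Azucena, with 95% Wilson intervals. Chromosome 3 is highest in both cultivars, at 5.85% and 4.07%, and IR64 chromosome 11 stands at 2.84%, near the Azucena value of 2.63%.

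Along the chromosomes the share of members was uneven in a similar way in both cultivars. Each chromosome was cut into 10 segments of equal length, with its length taken as the last called base. Segment 8 had the highest share, 6.40% in IR64 (5.63 to 7.28) and 4.03% in Azucena (3.40 to 4.77), and lay above the chromosome's own share on 10 of 12 chromosomes in each cultivar. Segment 5 had the lowest, 3.91% in IR64 (3.11 to 4.92) and 1.70% in Azucena (1.20 to 2.42), below the chromosome's own share on 7 of 12 chromosomes in IR64 and on 12 of 12 in Azucena. The high share in segment 8 was not clearly particular to members. Of broad regions with H3K27me3, 13.1% in IR64 and 15.0% in Azucena lay in segment 8, the most of any segment. In IR64 segment 2 held nearly as many, 12.7%. Of members 15.5% and 14.8% lay in segment 8, and of narrow regions 11.2% and 11.3%. Broad regions of either kind were also most frequent in segment 8, at 7.49% of H3K4me3 regions in IR64 and 5.79% in Azucena, but most of these are the members themselves. Segments are counted from the start of each chromosome in the files, and the centromere lies at different places on different chromosomes. Over the 10 segments the cultivars had r = 0.825 and rho = 0.891, again without a test, since segments are not replicates. In the 5 Mb of each chromosome poorest in H3K4me3, members made up 4.51% of regions in IR64 (3.69 to 5.49) and 2.44% in Azucena (1.87 to 3.19), against 4.76% (4.52 to 5.02) and 3.24% (3.03 to 3.47) elsewhere.

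**Figure D5:**
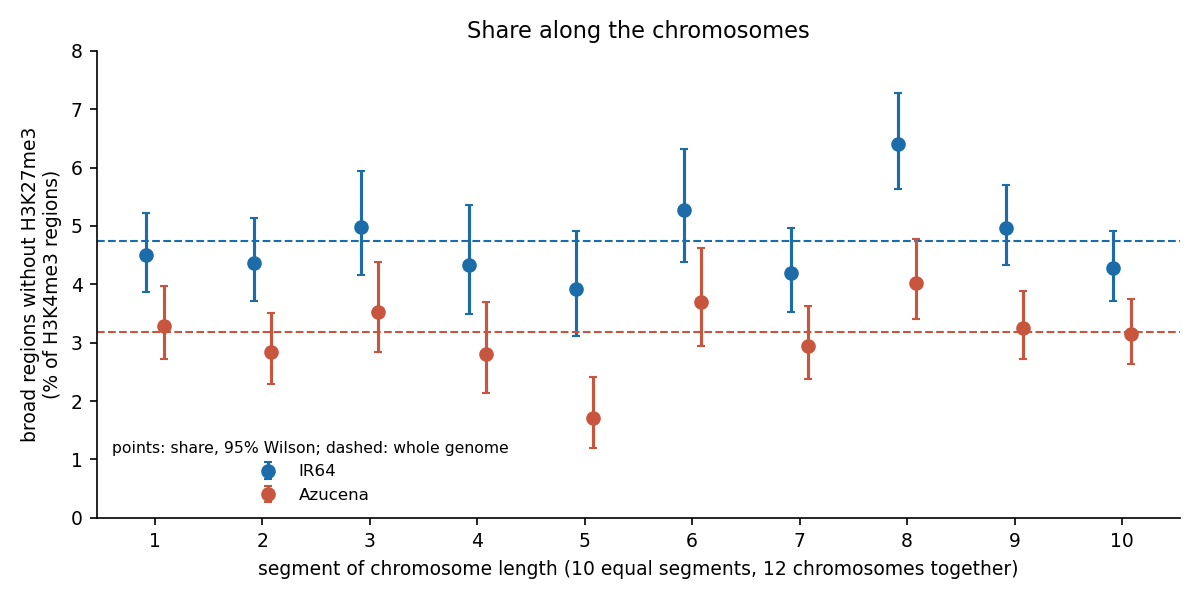
Broad H3K4me3 regions without H3K27me3 as a percentage of H3K4me3 regions in 10 equal segments along the chromosomes (start to end, 12 chromosomes together), in IR64 and Azucena. Points carry 95% Wilson intervals and dashed lines mark the whole-genome shares of 4.75% and 3.18%. Segment 8 is highest in both, at 6.40% and 4.03%, and segment 5 lowest, at 3.91% and 1.70%. Broad regions with or without H3K27me3 together (not drawn), most of them members, are also highest in segment 8, at 7.49% and 5.79%.

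Members are among the regions that set H3K4me3 density, so denser bins hold more members in part by construction. Bins of 1000000 bp in 5 groups of rising H3K4me3 density held a mean of 1.22, 2.43, 3.75, 5.49 and 5.13 members in IR64 and of 0.773, 1.27, 2.27, 3.27 and 3.68 in Azucena. As a share of the regions in the bins, members made up 3.88%, 4.39%, 4.85%, 5.61% and 4.41% in IR64 and 2.46%, 2.41%, 3.17%, 3.53% and 3.38% in Azucena. The densest IR64 group thus had a lower share than the group before it (4.00 to 4.85 against 5.11 to 6.16). Of 383 bins in IR64 35 held no member, and of 375 in Azucena 79. The fullest bin held 15 members in IR64 and 13 in Azucena.

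Toward the chromosome ends members were somewhat less frequent than narrow regions in IR64 and about as frequent in Azucena. The outer 20% at both ends of the chromosomes held 683 IR64 members (48.7%, 46.1 to 51.3) and 425 Azucena members (49.1%, 45.8 to 52.4), against 52.4% (51.7 to 53.0) and 51.1% (50.4 to 51.8) of narrow regions. Broad regions with H3K27me3 lay there in 45.2% of cases in IR64 (39.5 to 51.1) and 42.8% in Azucena (37.9 to 47.8). The members' interval lay below that of narrow regions in IR64 and overlapped it in Azucena.

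Position went with fold. In the 5 groups of rising fold, 55.6%, 56.9%, 54.1%, 42.6% and 34.8% of IR64 members lay in the outer 20%, and 54.0%, 57.5%, 53.2%, 38.0% and 27.1% of Azucena members. For narrow regions the lowest and the highest group held 63.9% and 36.6% there in IR64, and 63.4% and 36.0% in Azucena. Isolation went the same way. The median distance to the next H3K4me3 region was 3560, 4766, 5756, 6986 and 8388 bp in the IR64 members and 4216, 5290, 6521, 7498 and 9481 bp in the Azucena members. In narrow regions it ran from 2213 to 6554 bp in IR64 and from 2541 to 6929 bp in Azucena. The median local background fell over the same groups of members, from 19.3 to 10.4 reads in replicate 1 of IR64 and from 15.1 to 9.16 reads in replicate 1 of Azucena. Fold is set over that background, and its part in the relation to position was not tested.

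The cultivars were compared over libraries on 3 measures of the members. The ratio of the median fold of members to that of narrow regions was 1.03 and 1.05 in the IR64 libraries and 0.977 and 0.983 in the Azucena libraries, a mean of 1.04 ± 0.0124 for IR64 and 0.98 ± 0.00439 for Azucena (SD, n = 2 each). The groups did not overlap, and the exact permutation test, two-sided, gave p 0.333 (1 after adjustment over 3 tests), its lower limit with 2 libraries a side. The IR64 ratio lay below 1 with a width limit of 3000 bp (0.922), with H3K4me3 peaks of fold 4 or more (0.936) and with those of −log10 q 5 or more (0.986). The Azucena ratio lay above 1 with a width limit of 1500 bp (1.04) and with either H3K4me3 replicate left out (1.04 without replicate 1, 1.00 without replicate 2). IR64 stayed above Azucena under each of these settings. The same order was found for the fold ratio of other classes to narrow regions. Broad regions with H3K27me3 averaged 1.09 in IR64 and 1.01 in Azucena, and H3K4me3 regions under 2000 bp with H3K27me3 1.07 and 0.966. Peaks per member and library were 1.15 and 1.28 in IR64 and 1.20 and 1.16 in Azucena, a mean of 1.21 ± 0.0888 and 1.18 ± 0.0286 (SD, n = 2 each; exact permutation p 1, adjusted 1). This difference was smaller than the spread between libraries. Median widths of a member's widest peak averaged 2018 ± 73.2 bp for IR64 libraries and 2020.5 ± 18.4 bp for Azucena ones (SD, n = 2 each). The rule sets this width near 2000 bp in both cultivars, so nothing is read from the comparison.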

How the data were processed

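CUT&Tag peak lists of 8 meiocyte libraries were used, 2 per mark and cultivar, grouped by sample title. Per the deposited files, each library has 1 list, whose rows give a score, the summit's fold enrichment (ratio) and, for the summit, −log10 q as well as −log10 p. The submitters' processing notes name MACS2 2.1.0, Bismark 0.22.3, Bowtie2 and fastp 0.20.1, with no roles. Genome builds, control libraries and duplicate filters are not given in the sources used here. Reads and the count of peaks per library come from a table the authors deposited. The members and lists were chosen with earlier results of these data known.

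Peaks were merged where they overlapped or touched (Python 3.11.15, pandas 2.3.3), and an overlap with H3K27me3 needed 1 bp. The fold of a region in a library is that of its highest peak. Summit reads and local background were recovered from fold and p, assuming a Poisson tail with 1 added to both terms of the fold, with a match within 0.02 on the −log10 scale in 99.9% of the peaks or more of each library. Chromosome length is the last called base, a lower bound. Peaks on unplaced Azucena contigs (25 to 53 per library) were left out. Cultivars were compared by exact permutation of libraries. Nothing was tested over regions, which are not replicates, and 95% Wilson intervals describe their shares. Region building was tested on simulated data. Read recovery was also run on simulated peaks, but with backgrounds below the median background of members. Regions named in the text are, per cultivar, the 5 widest, the 5 of highest mean fold, the 5 with most summits, the 3 nearest each side of 2000 bp, the 3 widest with H3K27me3 and the 2 fullest stretches of 100 kb. Alternatives changed the width limit, the peak thresholds, the merging gap, the H3K27me3 rule and the libraries. Bisulfite coverage and flag-leaf samples were not used here.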

Additional observations from a re-analysis of the deposited data

Results flagged for a closer look

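One pattern was picked out because the cultivars moved in opposite directions with no overlap between their libraries. The median fold of members relative to narrow regions averaged 1.04 in IR64, above 1 in both libraries, and 0.98 in Azucena, below 1 in both. The difference of 0.0579 had an exact permutation p of 0.333 over 2 against 2 libraries, the smallest possible. A higher ratio in IR64 was not particular to members. Broad regions with H3K27me3 averaged 1.09 in IR64 and 1.01 in Azucena against the same narrow regions. H3K4me3 regions under 2000 bp with H3K27me3 averaged 1.07 and 0.966, also on opposite sides of 1. The opposite directions did not hold at all settings. In IR64 and Azucena both ratios were above 1 at 1500 bp (1.11 and 1.04). Both were also above 1 without H3K4me3 replicate 1 (1.12 and 1.04) or replicate 2 (1.09 and 1.00). Both were below 1 at 3000 bp (0.922 and 0.888), at fold 4 (0.936 and 0.916) and at −log10 q 5 (0.986 and 0.938).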

How the results depend on the processing

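Of 198 recomputed values of 15 results, 116 kept their direction and stayed within the spread of libraries or the interval of the share, 68 moved further and 14 changed direction. With a width limit of 1500 bp the share of members was 17.0% in IR64 and 13.0% in Azucena, the share in 1 unbroken peak 78.3% and 83.3%, the fold ratio to narrow regions 1.11 and 1.04, the share within 20 kb of another member 48.5% and 36.3%, the Azucena distance to H3K27me3 10714 bp, and the cultivar difference in widest peak 7 bp. At 3000 bp the share was 0.190% in IR64 and 0.0808% in Azucena, the unbroken share 30.4% and 13.6%, the fold ratio 0.922 and 0.888, and the share in the outer 20% 41.1% and 54.5%. The distance to H3K27me3 was then 11156 and 11026 bp, and the differences were 61.8 bp in widest peak and -0.136 in peaks per member. No member that wide lay within 20 kb of another (0% of 56 in IR64, allowing up to 5.36%, and 0% of 22 in Azucena, allowing up to 13.6%). With H3K4me3 peaks of −log10 q of at least 5, the share of members was 5.38% in IR64 and 3.56% in Azucena, the unbroken share 72.1% and 75.3%, and the fold ratio 0.986 and 0.938. With peaks of fold of at least 4 they were 4.31% and 2.29%, 96.6% and 96.2%, and 0.936 and 0.916. The share within 20 kb of a member was then 4.86% and 5.66%, the share in the outer 20% 38.9% and 33.5%, the Azucena distance 10989 bp, and the differences 23.5 bp and -0.00173. Merging peaks within 500 bp gave shares of 7.02% in IR64 and 4.61% in Azucena, unbroken shares of 41.2% and 45.3%, fold ratios of 1.01 and 0.956 and shares within 20 kb of 22.5% and 16.5%. With H3K27me3 kept 1000 bp away, the Azucena distance was 11062 bp. When only H3K27me3 regions of both libraries excluded, the distances were 20927 bp in IR64 and 12662 bp in Azucena and the Azucena share 3.48%, and with H3K27me3 peaks of −log10 q of at least 5 only, 18679 and 11733 bp and 3.40%. Within 50 kb another member lay near 37.4% of IR64 and 27.02% of Azucena members, and the outer 10% at both ends held 24.9% and 26.0%. The cause of these changes was not tested.

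Leaving out 1 library gave shares of members of 1.97% to 4.86% in IR64 and 1.48% to 3.36% in Azucena, fold ratios of 1.04 to 1.12 and 0.978 to 1.04, shares within 20 kb of 7.99% to 17.4% and 7.24% to 11.9%, and distances of 13956 to 18476 bp and 10728 to 11718 bp. The low shares were those with an H3K4me3 library left out. Peaks are then not joined between libraries, a region wide only in the library left out is lost, and all peaks of the other library are counted. The part of each in the low shares was not tested. The unbroken share has no value there, since each region is then 1 peak. The difference in widest peak ranged from -54.5 to 49 bp and in peaks per member from -0.0314 to 0.0942. With 1 library left in a cultivar these carry no test. The IR64 share of members exceeded that of Azucena under each setting tried, by 1.23 to 2.35 times. Permuting within replicate number (the replicate block, smallest p 0.5) left the differences at 0.0579, -2.75 bp and 0.0314, with exact permutation p of 0.5 for the fold ratio and 1 for peaks per member, and nothing read from that for width. Whether numbers pair the libraries could not be examined, as the cultivars' lists share no regions.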

Other observations

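The widest member of each cultivar lay near the end of chromosome 5. In IR64, chr5:30334851-30338938 ended 689753 bp before the last called base, 1689 bp from the nearest H3K27me3 peak and 15018 bp from the next H3K4me3 region. In Azucena, chr5:30401068-30405009 ended 549784 bp before the last called base, 1583 bp from the nearest H3K27me3 peak and 17264 bp from the next H3K4me3 region. This pair was singled out after its values were seen, and whether it is the same locus was not tested.

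Unplaced Azucena contigs held 22 H3K4me3 regions with a peak of both libraries. Of these, 20 overlapped H3K27me3 (90.9%), and the widest measured 1636 bp, so none was broad.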
